A study of Mus musculus with 6 samples.

Results

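Nasp and 9 further genes of histone chaperones were followed in TM4, a cell line of mouse Sertoli cells. Sertoli cells are the somatic cells that nurse germ cells in the testis. The 10 genes, Nasp, Hirip3, Asf1a, Asf1b, Chaf1a, Chaf1b, Ssrp1, Supt16, Set and Anp32b, were picked by symbol out of 24354 genes in the deposited table, with earlier results of these data known, so their own differences between the groups are given as a description with no test. RNA-seq was done on 3 libraries of control cells and 3 libraries of cells given 100 nM aluminium chloride (AlCl3), all at day 30. Both groups come from the same line, named by the labels without clone or passage, and the labels record for the controls neither a vehicle nor a genotype change. Whether replicates of a group are separate cultures is not stated, so p-values reflect library-to-library spread that may be no more than technical. In such bulk libraries, a larger share of cells that express a gene and more RNA per cell cannot be told apart.

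Histone chaperones hold histones that are not yet, or no longer, wound into nucleosomes, and pass them to each other and to DNA. NASP keeps a soluble store of H3–H4, ASF1 takes H3–H4 onward, and CAF-1 places it on newly copied DNA at the replication fork, where it binds the sliding clamp PCNA. FACT opens and rebuilds nucleosomes ahead of and behind polymerases, while SET and the ANP32 proteins are acidic proteins that bind histones and also act on phosphatases. In the testis, Nasp was first described as an antigen of sperm and has a longer testis form beside the somatic one.

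Levels are in FPKM as the authors deposited them, that is, fragments scaled to gene length and library size. Recovered reads in genes ran from 13381269 in AlCl3 2, the shallowest library, to 17339570 in AlCl3 1. Log2 values of replicates correlated within groups across genes with r from 0.978 to 0.993, and the first principal component, which separated the groups, held 83.8% of the variance. Of 13 Sertoli markers in the table, 7 reached a mean of 1 FPKM. Mean levels in control and AlCl3 were 72.1 and 46.0 FPKM for Inhbb, 11.6 and 6.33 FPKM for Gata4, 6.36 and 4.96 FPKM for Kitl, 4.54 and 1.56 FPKM for Inha, and 1.01 and 1.61 FPKM for Sox9, while Wt1 and Amh did not exceed a group mean of 0.173 FPKM. The summed Sertoli marker level ran from 81.9 to 117 FPKM in the controls and from 62.1 to 64.1 FPKM in AlCl3. The labels' extraction protocol names retinas as the tissue; no retina marker in the table exceeded a group mean of 0.0947 FPKM, and no germ cell marker there exceeded 0.133 FPKM.

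The stretches upstream of 4 of the genes are shown because these are members whose levels lay well apart between the groups, by 2.30- to 7.96-fold. Their 220 bases before the start also hold no annotated base of the gene itself. Overlap of these stretches with other genes was not checked. Sequences are from RefSeq (GRCm38.p6), 5′ to 3′ on the gene's strand, and are the 220 bases just before the RefSeq start. Capitals mark the letters CCAAT and CACGTG and their reverse complements.
Nasp, chr4:116627952-116628171, minus strand: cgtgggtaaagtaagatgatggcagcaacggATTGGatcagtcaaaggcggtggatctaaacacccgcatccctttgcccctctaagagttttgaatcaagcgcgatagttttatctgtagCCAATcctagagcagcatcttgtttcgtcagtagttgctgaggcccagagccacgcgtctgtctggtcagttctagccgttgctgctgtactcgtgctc
Hirip3, chr7:126861752-126861971, plus strand: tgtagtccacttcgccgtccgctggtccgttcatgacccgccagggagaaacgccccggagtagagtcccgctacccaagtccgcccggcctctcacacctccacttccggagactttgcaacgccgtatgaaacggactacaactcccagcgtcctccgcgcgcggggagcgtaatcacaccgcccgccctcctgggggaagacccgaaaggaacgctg
Chaf1a, chr17:56040196-56040415, plus strand: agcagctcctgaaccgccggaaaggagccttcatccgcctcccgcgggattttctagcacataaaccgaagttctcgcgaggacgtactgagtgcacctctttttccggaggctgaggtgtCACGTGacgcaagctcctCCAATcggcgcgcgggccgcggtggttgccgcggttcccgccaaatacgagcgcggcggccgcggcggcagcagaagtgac
Chaf1b, chr16:93883681-93883900, plus strand: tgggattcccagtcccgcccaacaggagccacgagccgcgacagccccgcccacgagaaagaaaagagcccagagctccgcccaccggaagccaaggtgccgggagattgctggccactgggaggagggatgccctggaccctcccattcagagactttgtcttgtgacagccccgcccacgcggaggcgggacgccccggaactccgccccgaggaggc
Nasp carries CCAAT on each strand, Chaf1a carries a CACGTG and a CCAAT close together, and the Hirip3 and Chaf1b stretches carry neither.

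Over the 250 bases before the start, CCAAT, the letters bound by the factor NF-Y, was found on either strand in 7 of the 12 RefSeq promoters of the 10 genes, those of 6 genes. The same search found it in 33.8% of all 32851 promoters. Asf1b held CCAAT at 4 places, as did or exceeded 0.840% of all promoters. CACGTG, an E-box, was found in 4 of the 12 promoters (Set, Anp32b, Supt16 and Chaf1a), against 6.02% of all promoters. The E2F spellings TTTCCCGC, TTTGGCGC, TTTCGCGC and TTTGCCGC, searched on both strands, were found in 1 of the 12, that of Ssrp1, against 1.86% of all. No match overlapped another motif. The motifs were chosen after the values were seen, a match is no measure of binding, and other spellings were not searched.

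Groups that did not overlap, with all 3 AlCl3 libraries above all 3 controls, were seen for 9 of the 10 genes. Among the 11202 genes with a mean of at least 1 FPKM, 66.1% did not overlap, 33.7% with AlCl3 higher and 32.4% with AlCl3 lower. The members' median log2 fold change, on the log2(FPKM + 1) scale, was 0.99, beside 0.03 over all these genes. Since the genes were chosen with these values known, nothing is read from that difference.

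**Figure D1:**
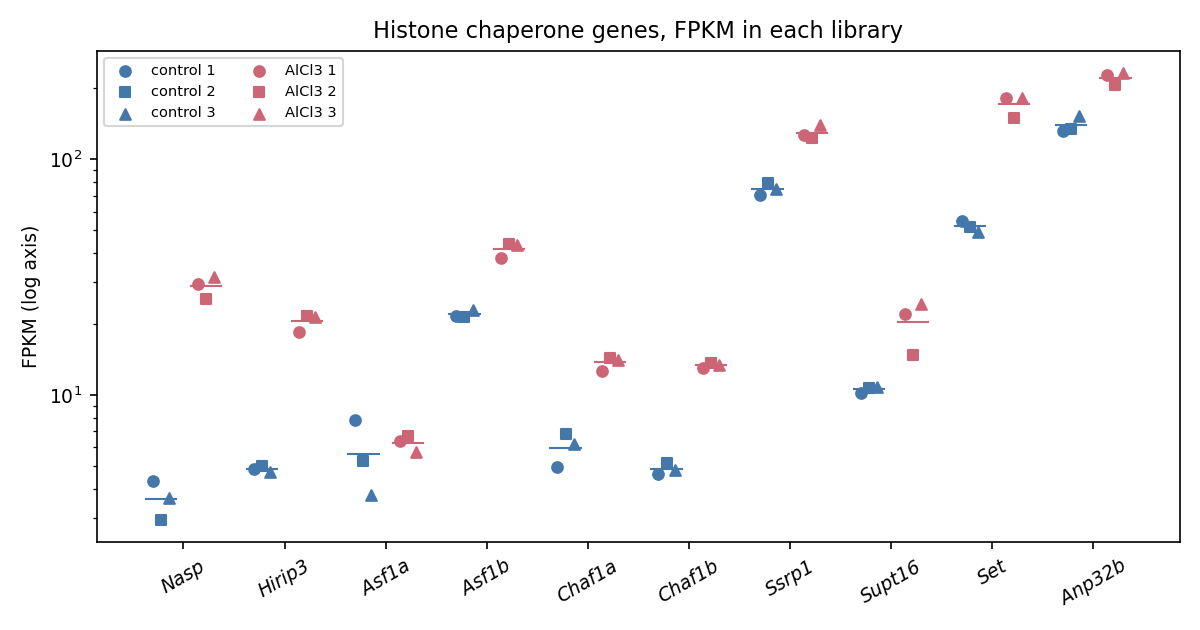
FPKM (log axis) of each of the 10 genes in each library, with blue for control, red for AlCl3, a marker shape per replicate number and a line at the group mean. Asf1a is the only one of the 10 whose groups overlap; Nasp has the widest gap, from 2.95 to 4.29 FPKM in the controls and from 25.6 to 31.6 FPKM in AlCl3.

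Nasp (ENSMUSG00000028693, GRCm38 chr4:116601052-116627941, minus strand), the H3–H4 store, stood at 4.29, 2.95 and 3.65 FPKM in controls 1 to 3 and at 29.5, 25.6 and 31.6 FPKM in AlCl3 1 to 3. The lowest AlCl3 library was 5.97 times the highest control. Its means were 3.63 ± 0.671 FPKM in control and 28.9 ± 3.07 FPKM in AlCl3 (SD, n = 3), 7.96-fold apart, and its log2 fold change of 2.70 stood at rank 11 of 11202. Between 374 and 535 reads lay behind each control value and between 2612 and 4082 behind each AlCl3 value. Among the 10 genes, Nasp had the lowest mean deposited FPKM in control and the fifth highest in AlCl3. The annotated exons of Nasp sum to 7518 bases while its longest coding transcript has 2520, so the deposited FPKM is low per transcript. Per base of that transcript, the level would be 10.8 FPKM in control and 86.2 FPKM in AlCl3, with the same fold. Scaled in the same way, the control means of Hirip3, Asf1a and Chaf1a would be 5.71, 9.27 and 9.56 FPKM, below that of Nasp. The rank of Nasp among the 10 genes thus depends on the length used. The table gives 1 value per gene, so the somatic and testis forms are not separated.

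Hirip3 (ENSMUSG00000042606, chr7:126861972-126865377, plus strand) encodes a partner of HIRA, the chaperone that places the H3.3 variant outside replication. Hirip3 stood at 4.85, 4.99 and 4.68 FPKM in controls 1 to 3 and at 18.5, 21.6 and 21.4 FPKM in AlCl3 1 to 3. These libraries fell into tight groups 4.23-fold apart in their means, and Hirip3 had the second largest fold among the 10 genes.

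Asf1a (ENSMUSG00000019857, chr10:53596757-53609225, plus strand) and Asf1b (ENSMUSG00000005470, chr8:83955507-83970197, plus strand) encode the paralogous H3–H4 carriers. ASF1A is linked mainly to HIRA and ASF1B to dividing cells. Asf1b stood at 21.5, 21.4 and 22.9 FPKM in controls 1 to 3 and at 38.0, 43.6 and 43.1 FPKM in AlCl3 1 to 3, so its groups lay apart, 1.90-fold. Asf1a stood at 7.83, 5.24 and 3.74 FPKM in controls 1 to 3 and at 6.34, 6.66 and 5.72 FPKM in AlCl3 1 to 3. All 3 AlCl3 values of Asf1a lay inside the range of the controls, and the means differed 1.11-fold. The direction of Asf1a depends on the setting, with a log2 fold change of 0.18 that became −0.20 once a GC and length trend was removed and −0.04 without control 3. Without control 1, it was 0.41 and the groups of all 10 genes lay apart, as did those of 74.9% of all genes tested in that setting. The ratio of Asf1b to Asf1a was 4.31 ± 1.69 in control and 6.70 ± 0.780 in AlCl3 (SD, n = 3), and the ranges overlapped.

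Chaf1a (ENSMUSG00000002835, chr17:56040439-56072289, plus strand) and Chaf1b (ENSMUSG00000022945, chr16:93883901-93906115, plus strand) encode the large and the middle subunit of CAF-1. Chaf1a stood at 4.95, 6.79 and 6.17 FPKM in controls 1 to 3 and at 12.7, 14.4 and 14.1 FPKM in AlCl3 1 to 3. Chaf1b stood at 4.63, 5.12 and 4.80 FPKM in controls 1 to 3 and at 13.1, 13.6 and 13.4 FPKM in AlCl3 1 to 3. Both genes lay higher in every AlCl3 library, 2.30-fold for Chaf1a and 2.75-fold for Chaf1b. The ratio of Chaf1a to Chaf1b was 1.23 ± 0.138 in control and 1.03 ± 0.0473 in AlCl3, with control 1 the lowest control at 1.07 and AlCl3 2 the highest AlCl3 library at 1.06. The small subunit gene Rbbp4, which many chromatin complexes share, stood at 32.3 ± 1.42 FPKM in control and 36.1 ± 1.26 FPKM in AlCl3 and did not pass the test (limma adjusted p = 0.23). Its paralogue Rbbp7 rose from 55.9 ± 5.70 to 128 ± 9.58 FPKM, with a log2 fold change of 1.18 ± 0.13 (SE; limma adjusted p = 5.2e-05). Both were chosen after their values were seen.

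Ssrp1 (ENSMUSG00000027067, chr2:85037234-85047109, plus strand) and Supt16 (ENSMUSG00000035726, chr14:52160414-52197416, minus strand) encode the subunits of FACT. Ssrp1 stood at 70.6, 79.2 and 74.9 FPKM in controls 1 to 3 and at 127, 123 and 140 FPKM in AlCl3 1 to 3. Supt16 stood at 10.1, 10.7 and 10.8 FPKM in controls 1 to 3 and at 22.0, 14.7 and 24.4 FPKM in AlCl3 1 to 3. Both lay higher in every AlCl3 library, 1.73-fold and 1.93-fold, with AlCl3 2 the lowest of its group for both and far the lowest for Supt16. The ratio of Ssrp1 to Supt16 was 7.10 ± 0.274 in control and 6.61 ± 1.48 in AlCl3, where AlCl3 2 stood at 8.32 and the other libraries at 5.78 and 5.73.

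Set (ENSMUSG00000054766, chr2:30057378-30072577, plus strand) and Anp32b (ENSMUSG00000028333, chr4:46450902-46472657, plus strand) encode acidic histone-binding proteins, and SET also inhibits a major serine/threonine phosphatase. Set stood at 54.7, 51.7 and 49.1 FPKM in controls 1 to 3 and at 182, 150 and 183 FPKM in AlCl3 1 to 3. Anp32b stood at 132, 134 and 153 FPKM in controls 1 to 3 and at 228, 206 and 232 FPKM in AlCl3 1 to 3. Both lay higher in every AlCl3 library, 3.31-fold for Set and 1.59-fold for Anp32b. Their ratio was 0.374 ± 0.0479 in control and 0.772 ± 0.0384 in AlCl3, with no overlap. The order of levels also changed within the 10 genes, with Ssrp1 above Set in every control and Set above Ssrp1 in every AlCl3 library. Anp32b had the highest deposited FPKM of the 10 in all 6 libraries. Per base of the longest coding transcript, the AlCl3 means would be 246 FPKM for Set and 222 FPKM for Anp32b.

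**Figure D2:**
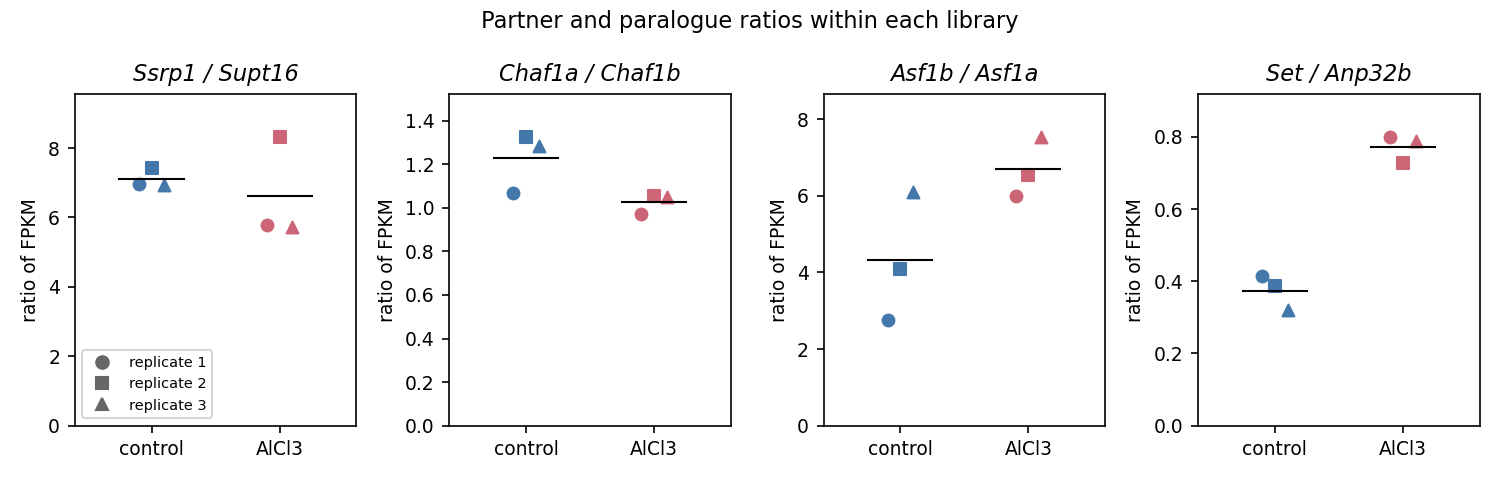
Ratio of FPKM between partners or paralogues in each library (vertical axis from 0), by group, with a marker shape per replicate and a line at the mean. Set over Anp32b lies apart between the groups, at 0.374 and 0.772 on average, while Ssrp1 over Supt16 and Asf1b over Asf1a overlap. Chaf1a over Chaf1b also lies apart, but narrowly, with control 1 at 1.07 and AlCl3 2 at 1.06.

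In control, Chaf1a, Asf1a, Chaf1b and Hirip3, in this order of mean level, lay between 3.74 and 7.83 FPKM, each overlapping the next. Nasp overlapped only Asf1a among the other 9. In AlCl3, Hirip3 and Supt16 overlapped, as did Chaf1a and Chaf1b, and Asf1a was the lowest of the 10 in every library. Summed over the 10 genes, the level was 324 ± 9.31 FPKM in control and 668 ± 45.7 FPKM in AlCl3, of which Set and Anp32b held 59.1% and 58.9%. These orders and shares are of deposited FPKM and depend on the length used for each gene.

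Reads of Set can also belong to the processed pseudogene Gm9531, which shares 668 bases with it at 100% identity. Gm9531 stood between 21.6 and 25.9 FPKM in the controls and at 71.5, 105 and 68.2 FPKM in AlCl3 1 to 3. AlCl3 2 was the highest library for Gm9531 and the lowest of its group for Set. Reads of both genes summed to 237 ± 13.7 RPM (reads scaled to library size) in control and 786 ± 55.1 RPM in AlCl3, 3.32-fold apart, close to the 3.31-fold of Set alone. The sources used here do not say how shared reads were assigned.

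Exons on the opposite strand cover 52.5% of the Chaf1a exons (Ubxn6), 48.0% of those of Asf1a (Mcm9), 21.0% of those of Supt16 (Rpgrip1), 4.59% of those of Hirip3 (Ino80e) and 1.36% of those of Ssrp1 (P2rx3). The strand setting of the counts is not known, so reads of such pairs may not be told apart. Ubxn6 held 155 to 221 reads per library, beside 728 to 2139 for Chaf1a. Mcm9, a helicase gene of DNA repair, held 72 to 87 reads in the controls and 101 to 160 in AlCl3, beside 237 to 473 for Asf1a. Rpgrip1 held at most 10 reads. Ino80e held 812 to 1129 reads, beside 263 to 275 for Hirip3 in the controls and 956 to 1201 in AlCl3. P2rx3 held 1186 to 1302 reads in the controls and 569 to 781 in AlCl3, beside 4381 to 8951 for Ssrp1 over all libraries.

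The libraries differed within groups by gene length. In the shortest decile of genes the median deviation from the group mean, on the log2 scale, was 0.15 in control 1, 0.21 in AlCl3 2 and −0.20 in AlCl3 3. In the longest decile it was −0.16, −0.16 and 0.14 in the same libraries. AlCl3 2 was the lowest AlCl3 library for 5 of the 10 genes (Nasp, Ssrp1, Supt16, Set and Anp32b) and the highest for the other 5. Differences between groups also moved with GC content, with a median log2 fold change of 0.33 for the decile with the lowest GC and −0.53 for that with the highest. Nasp, with 38.9% GC in its longest transcript, lies in the lowest decile, bounded at 41.5%, as does Asf1a with 38.6%. The part of these trends in the values of the 10 genes was not tested beyond their removal. With it, log2 fold changes went down for Nasp (2.70 to 2.36), Set (1.70 to 1.46) and Supt16 (0.86 to 0.62). Those of Chaf1b (1.30 to 1.20), Ssrp1 (0.79 to 0.78) and Asf1a (given above) also went down. Those of Hirip3 (1.88 to 2.02), Chaf1a (1.08 to 1.23), Asf1b (0.89 to 0.96) and Anp32b (0.67 to 0.72) went up.

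**Figure D3:**
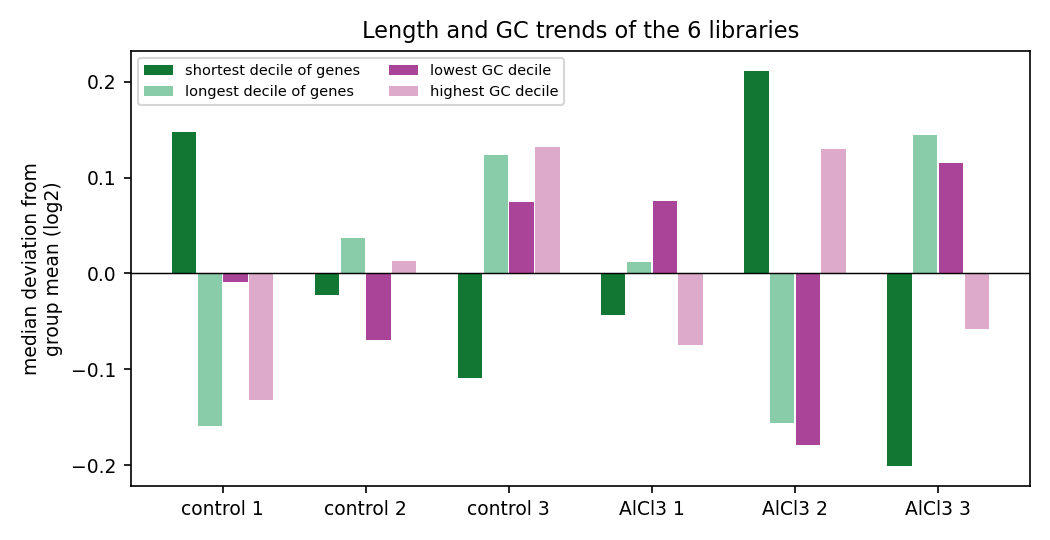
Median deviation of each library from its group mean (log2 scale) over the shortest, longest, lowest-GC and highest-GC decile of tested genes. Control 1 and AlCl3 2 share the direction of the length bars, with 0.15 and 0.21 for the shortest genes, and AlCl3 3 goes the other way at −0.20.

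**Figure D4:**
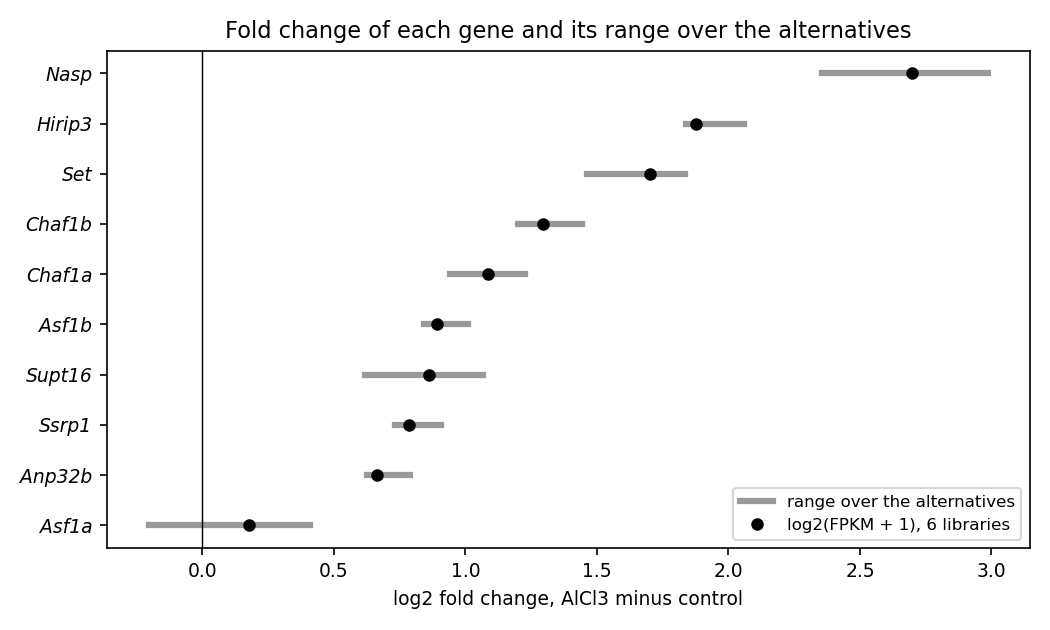
Log2 fold change of each gene (AlCl3 minus control, points) and the range over 15 other settings (grey bars). Only the Asf1a range crosses 0, from −0.20 to 0.41. That of Nasp runs from 2.36 to 2.99. For genes whose groups do not overlap, settings that only drop libraries or change the pseudocount, filter or block cannot turn the sign.

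The profile of Nasp over the 6 libraries was set beside those of all other tested genes by the root mean square difference of log2(FPKM + 1) from each gene's control mean. The 5 nearest were Nop56 (0.083), a core protein of box C/D small nucleolar particles, Gtf3c6 (0.113), a subunit of a general factor of RNA polymerase III, Ebna1bp2 (0.170), a factor of ribosome assembly, Lce1g (0.179), named for the cornified envelope of skin, and Pop1 (0.179), a protein of RNase P and MRP. Nop56 stood at 27.2, 21.2 and 24.5 FPKM in controls 1 to 3 and at 156, 138 and 159 FPKM in AlCl3 1 to 3, with the same order of libraries as Nasp in both groups. Of the other 9 members, Hirip3 was nearest to Nasp at 0.608 and Set next at 0.711, at ranks 147 and 218 of 11201.

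Genes around these chaperones were tested with limma over all 11202 genes, of which 61.3% passed an adjusted p of 0.05, 31.2% higher and 30.2% lower in AlCl3. After rescaling to TPM these shares were 33.5% and 24.2%. Of 34 other histone chaperones and carriers tested, 21 rose, 4 fell and 9 passed in neither direction, with a median log2 fold change of 0.59. Anp32e, a chaperone that removes the variant H2A.Z, rose from 37.8 ± 2.66 to 106 ± 1.94 FPKM (limma adjusted p = 8.2e-06). Nap1l4, a carrier of the NAP1 family, rose from 27.8 ± 0.509 to 72.3 ± 1.81 FPKM (limma adjusted p = 8.7e-06). Pole3, a small subunit of DNA polymerase epsilon that binds H3–H4, rose 3.09-fold, and Dnajc9, a heat shock co-chaperone of H3–H4, rose 2.42-fold (limma adjusted p = 1.3e-05 and 3.7e-05). The 4 that fell were Tspyl1, Vps72, Ptms and Spty2d1, by log2 values of −1.02, −0.82, −0.67 and −0.67 (limma adjusted p from 4.7e-05 to 0.0025), named after their values were seen. Ptms no longer passed once the GC and length trend was removed (limma adjusted p = 0.20, the highest of its 15 other settings, which began at 0.00048). Vps72 and Anp32e act on the same variant, since VPS72 brings it into chromatin.

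Newly made H3–H4 is bound by heat shock proteins, acetylated by HAT1 and carried into the nucleus by importins. Of 10 genes of these steps, 9 rose and none fell (0 also at an unadjusted p under 0.05 and with limma voom), with a median of 1.23. Hspa8 rose from 57.0 ± 10.9 to 313 ± 35.9 FPKM and Hsp90aa1 from 43.0 ± 10.4 to 237 ± 35.9 FPKM (limma adjusted p = 5.2e-06 and 8.2e-06). Hat1, the acetyltransferase, rose from 19.1 ± 5.22 to 83.8 ± 3.12 FPKM, and Ran, the GTPase of nuclear transport, rose from 224 ± 18.3 to 533 ± 27.1 FPKM (limma adjusted p = 1.1e-05 and 5.8e-05). Ipo4, the importin bound with ASF1 and H3–H4, stood at 10.3 ± 0.909 and 11.3 ± 0.690 FPKM and did not pass (limma adjusted p = 0.40). It was chosen after its value was seen, and it passed in 1 of 15 other settings, the removal of the GC and length trend (limma adjusted p = 0.00047, with up to 0.92 elsewhere).

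Histone mRNAs of S phase end in a stem-loop in place of a poly(A) tail and need their own processing factors. Of 16 tested genes of histone mRNA production, 9 rose and 3 fell, with a median of 0.48. This list is wider than those factors, as it also holds cyclins and factors of the mRNA cap. Slbp, which binds the stem-loop, rose from 4.70 ± 0.920 to 19.6 ± 1.01 FPKM, and Ccne2, a cyclin of S phase entry, rose from 2.51 ± 0.440 to 11.3 ± 1.01 FPKM (limma adjusted p = 7.3e-06 and 7.0e-06). Srrt and Ncbp1, which act at the mRNA cap, rose 4.34-fold and 3.85-fold (limma adjusted p = 2.3e-06 and 1.4e-05). Lsm10 and Lsm11, which are paired in the particle that cuts histone mRNA, both fell, as did Sympk, with log2 fold changes of −0.54, −0.34 and −0.60 (limma adjusted p = 0.0021, 0.030 and 0.0035), named after their values were seen. Lsm11 did not pass in 6 of the 14 other settings that tested it (limma adjusted p from 0.0085 to 0.18): with no filter, with TPM, and without control 2, control 3, AlCl3 1 or AlCl3 3.

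Among the histones themselves, 5 of 48 replication-dependent genes passed the filter, of which 1 rose and 1 fell. These are 20% and 20%, beside 31.2% and 30.2% of all genes tested. The linker histone gene Hist1h1c fell from 24.4 ± 2.72 to 11.1 ± 1.40 FPKM and Hist1h4i rose from 3.48 ± 0.763 to 6.21 ± 1.21 FPKM (limma adjusted p = 0.00012 and 0.0055). Summed over all 48 genes, 43 of them below the filter, the level ran from 43.1 to 50.4 FPKM in the controls. In AlCl3 it ran from 37.2 to 47.8 FPKM. Without Hist1h1c, the sum ran from 17.8 to 23.9 FPKM in the controls and from 27.3 to 35.2 FPKM in AlCl3. The sources used here do not say whether poly(A) RNA was selected, and such a selection would lose most of the replication-dependent mRNAs. Of 10 replacement histone genes tested, 4 rose and 2 fell (40% and 20%, beside 31.2% and 30.2% of all genes tested), with a median of 0.23. H1f0, the replacement linker histone, fell from 660 ± 28.3 to 287 ± 15.8 FPKM, and H2afv fell from 94.3 ± 4.89 to 53.5 ± 6.61 FPKM (limma adjusted p = 7.4e-05 and 0.00049). H2afz, close in sequence to H2afv, rose from 520 ± 85.8 to 934 ± 99.6 FPKM, and H2afy, a macro variant, rose from 7.02 ± 0.102 to 9.85 ± 0.888 FPKM (limma adjusted p = 0.0025 and 0.0086). The count of replacement histones that rose was 2 without control 2, without AlCl3 1, with median-ratio scaling and with no filter.

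FACT works beside elongation factors on genes being transcribed. Of 14 genes of the PAF1 complex, its partners and a FACT-bound kinase, 4 rose (28.6%, beside 31.2% of all genes tested). None fell (0 also at an unadjusted p under 0.05 and with limma voom), beside 30.2% of all, and the median was 0.27. Groups did not overlap for 5 genes with AlCl3 higher and for 1 with AlCl3 lower, beside 33.7% and 32.4% of all. Rtf1 rose from 6.63 ± 0.450 to 10.9 ± 1.45 FPKM and Cdc73 from 1.65 ± 0.189 to 2.75 ± 0.430 FPKM (limma adjusted p = 0.0019 and 0.0091). Ctr9 and Leo1 rose 1.37-fold and 1.29-fold (limma adjusted p = 0.023 and 0.036). Ctr9 and Leo1 no longer passed without control 1, control 2, AlCl3 1 or AlCl3 3, and Cdc73 no longer passed once the GC and length trend was removed, with limma adjusted p over the settings of up to 0.093, 0.12 and 0.056. The count of 4 was 2 without control 2, without AlCl3 1 or without AlCl3 3, and 7 without both control 1 and AlCl3 2.

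CAF-1 meets DNA through PCNA, and 15 of 16 genes of S phase and the clamp rose and none fell (0 also at an unadjusted p under 0.05 and with limma voom), with a median of 1.74. Mcm5, a subunit of the replicative helicase, rose from 34.0 ± 2.17 to 132 ± 8.83 FPKM, and Rrm1, a subunit of ribonucleotide reductase, from 7.31 ± 0.913 to 39.8 ± 5.84 FPKM (limma adjusted p = 3.4e-06 and 3.8e-06). Rrm2 rose 5.95-fold and Mcm7 rose 4.85-fold (limma adjusted p = 1.6e-06 and 2.4e-06). Top2a, the mitotic topoisomerase, stood at 22.0 ± 3.88 and 33.4 ± 9.92 FPKM and did not pass (limma adjusted p = 0.051). It was chosen after its value was seen, and it passed in 8 of 15 other settings, among them the replicate block, TPM and the fit without AlCl3 2 (limma adjusted p from 0.0025 to 0.18). The share of cells in S phase was not measured, and its part in the values of the chaperone genes was not tested.

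**Figure D5:**
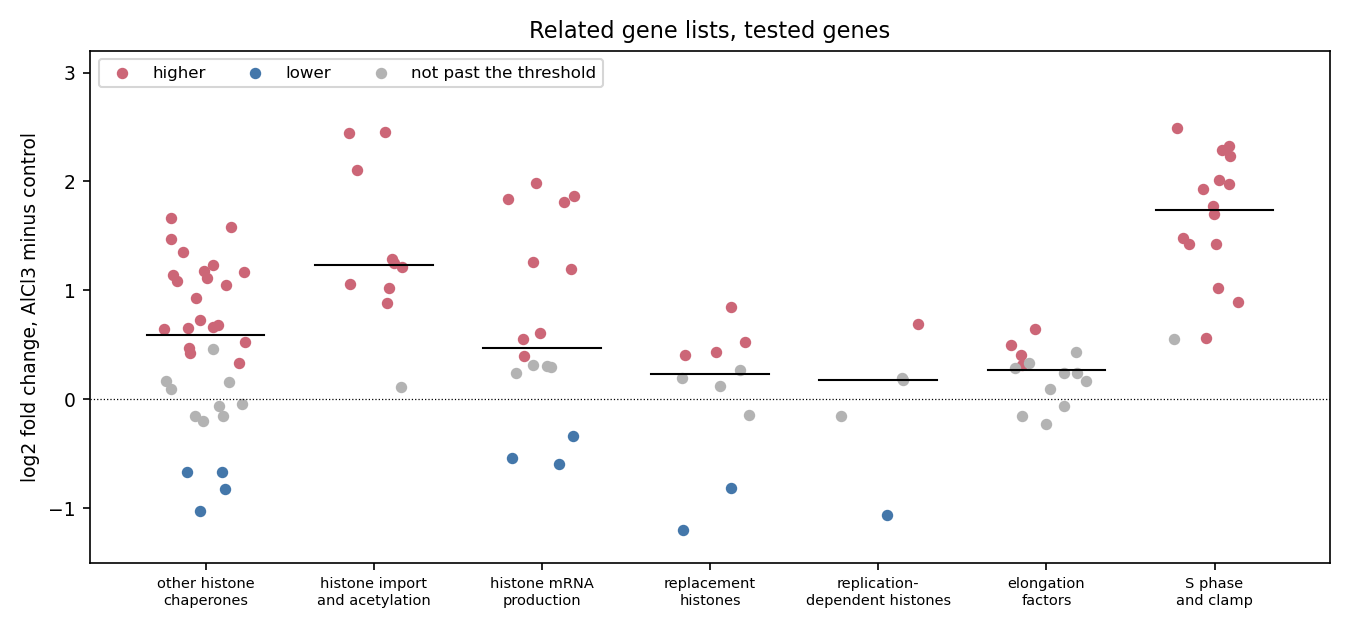
Log2 fold change (AlCl3 minus control) of the tested genes of 7 related lists, red where the gene rose, blue where it fell and grey where it did not pass the limma threshold, with a line at each list's median. Medians run from 0.18 for replication-dependent histones to 1.74 for S phase and the clamp, beside 0.03 over all tested genes.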

How the data were processed

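FPKM values of 6 RNA-seq libraries were deposited by the authors for 24354 genes. The submitters' processing notes name HISAT2 2.1.0 and the build GRCm38. For the counter, annotation and strand setting: not given in the sources used here. Symbols, lengths and coordinates came from GENCODE mouse M21 (GRCm38), which held 24300 of the identifiers. Whole reads were recovered from the FPKM for 98.5% of genes, within 0.01 reads. Genes with a mean of at least 1 FPKM went into limma (version 3.58.1, R 4.3.3), fitted to log2(FPKM + 1) with a trended variance, no covariate, and Benjamini-Hochberg adjustment over all 11202 genes (two-sided, threshold 0.05). Low genes change by more than this scale shows. Fold values are ratios of mean FPKM. The fit was first run on simulated data with few changed genes and no length or GC trend. These data differ in both, so that run does not show how the fit performs here. Copies were sought with blastn 2.17.0. The members and lists were chosen with earlier results of these data known. Genes were named if they were members, among the 4 smallest p of a list, nearest to Nasp, or copies or overlaps of members; not all that qualify are used here. Further genes (Rbbp4, Rbbp7, Tspyl1, Vps72, Ptms, Spty2d1, Ipo4, Lsm10, Lsm11, Sympk and Top2a) were named after their values were seen. The ratios, motifs, the limits of the copy and overlap checks, and the description of length and GC trends were chosen after the data were seen.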

Additional observations from a re-analysis of the deposited data

How the results depend on the processing

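Under 15 other settings, the 9 genes whose groups lay apart kept a positive log2 fold change in all 135 values. Of 150 values of the 10 genes, 133 moved by less than 1 SD between replicates. Much of both counts was fixed in advance. Where groups do not overlap, leaving out libraries, another pseudocount or filter, or the replicate block cannot turn the sign. Leaving out 1 library cannot move a value by 1 SD, and another filter or the block leaves it unchanged. For the 9 genes, the sign could turn only with TPM, median-ratio scaling, the GC and length trend removed, or limma voom, and it did not. Only Asf1a changed direction, as given above. The count of replication-dependent histones that rose was 10 with no filter and 0 at 5 FPKM, and 3 fell with no filter, where more or fewer genes were tested. Replacement histones that rose numbered 2 with no filter and 2 with median-ratio scaling, and 2 to 3 over the fits that left out 1 library. Elongation genes that rose numbered 2 to 5 over those fits. Without both control 1 and AlCl3 2, 7 rose and 1 fell; that setting and limma voom on recovered reads were added after seeing the data. The cause of these shifts was not tested. Rescaling to TPM moved the median of all genes by 0.10 (log2) and gave 3756 genes higher and 2707 lower in place of 3490 and 3379, and Anp32b then stood at 0.79. Same-numbered replicates correlated in their deviations with r of 0.20, 0.097 and 0.39, and differently numbered ones with r from −0.36 to 0.17. AlCl3 2 correlated best with control 1, at 0.17. The labels do not say that the numbers pair the samples, so the main fit left them unpaired. Whether they are paired cannot be told from these values. With the replicate number as a block, 7375 genes passed in place of 6869. The 2 planned count-model tests were not run, as the table holds FPKM. Of 48 replication-dependent histone genes, 43 lay below the filter.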
